A study of Mus musculus with 4 samples.

Results

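The glycolytic switch genes examined here were 10 genes of glucose transport, glycolysis and pyruvate fate, taken by symbol from a list set by their known roles. No measured value served as a rule, but the list was drawn up with earlier results of these data known. They were the glucose transporters *Slc2a1* and *Slc2a3*, the hexokinases *Hk1* and *Hk2*, the phosphofructokinases *Pfkp* and *Pfkl*, the pyruvate kinase gene *Pkm*, the lactate dehydrogenases *Ldha* and *Ldhb*, and the pyruvate dehydrogenase kinase *Pdk1*. All 10 were found among the 55602 genes of the bulk count table, and all 10 were among the 19995 genes tested, those whose counts over the libraries summed to more than 8. RNA was sequenced from JB1 cells, male F1 hybrid ESCs whose maternal genome is JF1 and whose paternal genome is C57BL/6 (B6), and from a *Zfp57*-/- line derived from it. ZFP57 is a zinc finger protein that protects the methylation of imprinting control regions. Both lines were kept as ESCs in serum-free medium with the Gsk3 inhibitor CHIR99021 and were then taken through a corticogenesis protocol with 1 µM cyclopamine, a sonic hedgehog inhibitor, from day 2 to day 10. Cells were harvested at day 12, with 2 wild-type and 2 *Zfp57*-/- cultures. Each genotype is a single ESC line, so that a difference between the genotypes cannot be told apart from a difference between these lines.

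Glycolysis turns glucose into pyruvate in the cytosol, and its rate is set at glucose entry, at hexokinase, at phosphofructokinase and at pyruvate kinase. Lactate dehydrogenase then makes lactate, or the pyruvate dehydrogenase complex feeds pyruvate into mitochondrial respiration, and the PDK kinases turn that complex off. Pluripotent and proliferating progenitor cells are known for high glycolysis with lactate output even in oxygen. Neurons are known to depend more on respiration. Many genes of the pathway are targets of the hypoxia-inducible factors (HIF), which bind short DNA sites with an ACGTG or GCGTG core.

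The promoter windows of 3 of the genes that differed between the genotypes are shown, because they span the range found, from several copies of that core to none. They are RefSeq sequences of the GRCm38.p6 build, 250 bases directly upstream of the gene's most upstream transcript start, printed 5′ to 3′ on the gene's strand. *Hk1*, *Ldha* and *Pkm* each had 2 starts in RefSeq, and the window of the other start was not searched. Capitals mark the ACGTG and GCGTG cores, searched on both strands, so that CACGT and CACGC are cores on the other strand and CACGTG counts on both strands. The *Ldha* window (chr7:46845554-46845803, plus strand) held 5 such matches and lies inside the longer gene model of the count table, but within no annotated exon. The *Ldhb* window (chr6:142507958-142508207, minus strand) held 1, and the *Hk1* window (chr10:62379909-62380158, minus strand) held 0.
Ldha: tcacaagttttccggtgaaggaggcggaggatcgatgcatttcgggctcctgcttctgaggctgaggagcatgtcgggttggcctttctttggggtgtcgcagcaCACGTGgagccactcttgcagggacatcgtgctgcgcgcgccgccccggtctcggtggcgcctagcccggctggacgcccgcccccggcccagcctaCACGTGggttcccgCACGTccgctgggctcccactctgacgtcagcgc
Ldhb: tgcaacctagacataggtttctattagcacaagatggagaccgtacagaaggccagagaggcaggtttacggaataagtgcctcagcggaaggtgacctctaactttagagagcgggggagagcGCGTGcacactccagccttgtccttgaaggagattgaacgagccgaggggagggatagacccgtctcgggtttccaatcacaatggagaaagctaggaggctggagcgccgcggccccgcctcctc
Hk1: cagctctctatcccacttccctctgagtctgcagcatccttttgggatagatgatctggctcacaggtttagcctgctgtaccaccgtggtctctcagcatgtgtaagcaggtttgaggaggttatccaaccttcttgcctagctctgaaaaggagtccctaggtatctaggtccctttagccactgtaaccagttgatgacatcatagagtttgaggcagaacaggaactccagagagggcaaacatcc
Of the 10 genes, 9 had a window in the RefSeq table, and 7 of these 9 held at least 1 core. *Slc2a3* was the gene without a window, and the *Pkm* window, like that of *Hk1*, held 0 cores. Annotated *Pkm* exons cover 208 bases of the *Pkm* window. Over all 27025 promoter windows of this length, 16.5% held ACGTG, 28.3% held GCGTG and 38.6% held either core. A match is a description of the sequence and not of binding.

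The libraries held between 7663520 and 10337082 bulk counts, and each of the 10 genes had between 346 and 17812 counts in every library. *Zfp57* itself (ENSMUSG00000036036.15, chr17:37001163-37010635) had 392 and 249 counts in wild-type replicates against 158 and 144 in *Zfp57*-/- replicates (log2 fold change -1.19, standard error 0.32, edgeR adjusted p = 0.0225), a count that covers the whole gene and so also exons outside a deletion. Its call was lost without *Zfp57*-/- replicate 2 (adjusted p = 0.0719), and its log2 fold change was -0.61 without wild-type replicate 1. The cells labelled neural precursors differed in their markers. Of 12 pluripotency markers, 10 were called higher in the mutant cells, and their summed level was 78.5 and 114 FPKM (fragments per kilobase of exon, scaled to the TMM library size) in the wild-type against 928 and 815 in the *Zfp57*-/- replicates. *Nanog* was at 0 in both wild-type replicates. Of 10 neural markers, 8 were called lower, with a summed level of 408 and 615 FPKM in wild-type replicates against 99.5 and 90.2 in *Zfp57*-/- replicates. Of 8 endoderm markers 1 was higher, of 6 endothelial markers 2 were higher and 1 lower, and of 4 astroglial markers 1 was higher and 1 lower. Of 4 erythroid markers 1 was tested, *Gata1*, with 0 and 0 against 6 and 5 counts, and *Hbb-bt* was at 0 in all 4 libraries. In bulk RNA, fewer cells of a type and less RNA per cell cannot be told apart. The part of these markers' cell types in the differences below was not tested.

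Between the genotypes, 5 of the 10 genes had an adjusted p below 0.05 by edgeR's quasi-likelihood test, against 27.6% of all 19995 genes. *Slc2a3* and *Ldhb* were higher in mutant cells (13% of all genes were higher), and *Hk1*, *Pfkl* and *Ldha* were lower (14.6% of all genes were lower). In none of the 4 pairs of related genes were both members called in the same direction. The number called was 8 without wild-type replicate 1 and also without wild-type replicate 2, 1 without *Zfp57*-/- replicate 1 and 2 without *Zfp57*-/- replicate 2, and DESeq2 called 4. In a fit that leaves 1 library of a genotype, the spread comes from the 2 libraries of the other genotype. Calls gained or lost in such fits depend on that spread as well as on the gene. The values of the 2 genotypes did not overlap for 6 of the 10 genes, and this was so for 66.3% of all genes. The median log2 fold change, *Zfp57*-/- over wild-type, was -0.17 over the 10 genes and -0.01 over all genes tested.

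**Figure D1:**
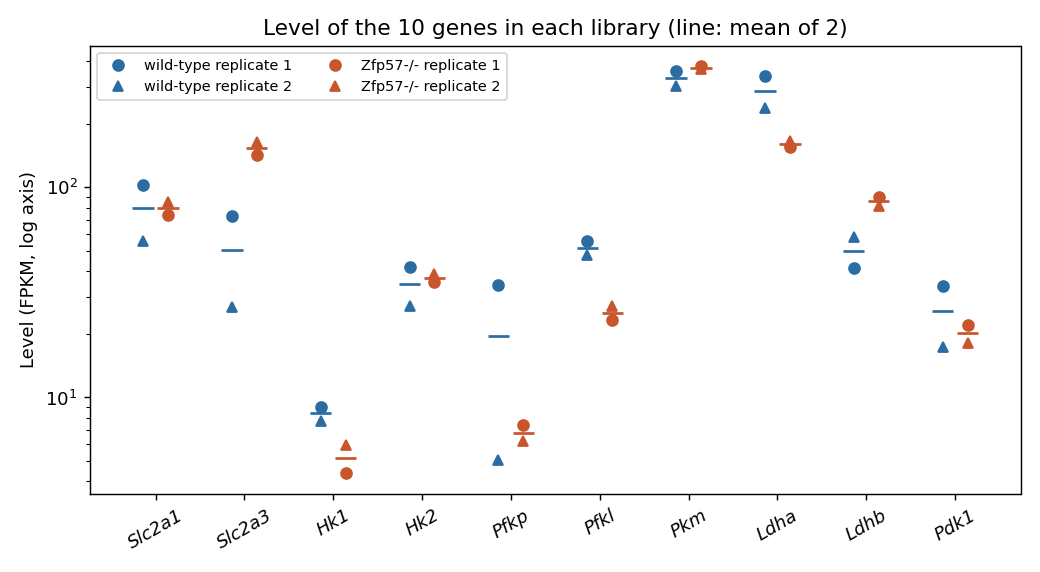
Level of each of the 10 genes in FPKM (vertical log axis) in every library, with circles for replicate 1, triangles for replicate 2, blue for wild-type and orange for Zfp57-/- cells, and a line at the mean of 2 libraries. Slc2a3 sits at 143 and 163 FPKM in the Zfp57-/- cells, above both wild-type libraries, while the 2 Pfkp values of wild-type cells lie far apart at 34.2 and 5.06 FPKM.

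Glucose enters these cells through facilitative transporters. *Slc2a3* (ENSMUSG00000003153.10, chr6:122727809-122801640), which encodes the high-affinity transporter GLUT3 of neurons and early embryos, had 4286 and 2039 counts in wild-type replicates against 9652 and 11575 in *Zfp57*-/- replicates. In FPKM, which divides counts by the exon length of the gene, these levels were 73.3 and 26.9 against 143 and 163. Both *Zfp57*-/- libraries were above both wild-type libraries, although the wild-type replicates differed from each other by 2.73-fold. The level rose from 50.1 ± 32.8 (SD, n = 2) to 153 ± 14.4 FPKM (SD, n = 2), a 3.06-fold higher mean (log2 fold change 1.61, standard error 0.38, edgeR adjusted p = 0.0117). The size depended on the wild-type library, with a log2 fold change of 2.48 without wild-type replicate 1 and 1.06 without replicate 2, and DESeq2 did not call it (adjusted p = 0.0612). *Slc2a1* (ENSMUSG00000028645.11, chr4:119108711-119137983), which encodes the widely expressed basal transporter GLUT1, had 103 and 55.6 FPKM in wild-type replicates against 73.4 and 85.2 FPKM in *Zfp57*-/- replicates. Its *Zfp57*-/- values lay between those of the wild-type cells (log2 fold change 0.00, standard error 0.27, edgeR adjusted p = 0.996). Its sign followed the wild-type library used, at 0.48 without wild-type replicate 1 and -0.38 without replicate 2.

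Per kilobase, the rank of the 2 transporters differed between the genotypes. *Slc2a1* was 1.40 and 2.07 times as high as *Slc2a3*, per kilobase, in the wild-type replicates and 0.513 and 0.522 times as high in the *Zfp57*-/- replicates. Because both genes come from the same library, this ratio does not depend on how libraries are scaled. The order within a library does depend on the exon lengths used, 3506 bases for *Slc2a1* and 7245 for *Slc2a3*. In counts, *Slc2a1* had 2913 and 2043 against 4286 and 2039 for *Slc2a3* in wild-type replicates. The difference between the genotypes does not depend on these lengths. The mean log2 ratio differed by -1.72, and the groups did not overlap (exact two-sided permutation test, p = 0.333, which is the smallest p that 2 against 2 libraries allow).

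Hexokinase traps glucose in the cell as glucose 6-phosphate. *Hk1* (ENSMUSG00000037012.18, chr10:62268855-62379908), the hexokinase typical of brain, had 624 and 694 counts in wild-type replicates against 346 and 494 in *Zfp57*-/- replicates, or 9.06 and 7.77 against 4.35 and 5.92 FPKM. Both wild-type libraries were above both *Zfp57*-/- libraries, and the mean was 1.64-fold lower in the *Zfp57*-/- cells (log2 fold change -0.71, standard error 0.22, edgeR adjusted p = 0.0355). The call was lost with a gene-length correction (adjusted p = 0.0837), without *Zfp57*-/- replicate 1 (0.475) and without replicate 2 (0.0969). *Hk2* (ENSMUSG00000000628.10, chr6:82725025-82774454), the inducible hexokinase of proliferating and muscle cells, had 41.7 and 27.4 FPKM in wild-type replicates against 35.4 and 38.8 FPKM in *Zfp57*-/- replicates. The groups overlapped, and the log2 fold change of 0.10 was smaller than its standard error of 0.23 (edgeR adjusted p = 0.775). It was 0.41 without wild-type replicate 1 and -0.17 without replicate 2.

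*Hk2* was the more abundant hexokinase per kilobase in all 4 libraries. It was 4.61 and 3.53 times as high as *Hk1* in wild-type replicates against 8.13 and 6.55 times in *Zfp57*-/- replicates. The log2 ratio was 0.86 higher in the *Zfp57*-/- cells, with no overlap between the groups (exact two-sided permutation test, p = 0.333, the smallest possible).

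Phosphofructokinase makes fructose 1,6-bisphosphate and commits sugar to glycolysis. *Pfkl* (ENSMUSG00000020277.10, chr10:77986947-78010083), the liver-type subunit, had 2982 and 3342 counts in wild-type replicates against 1453 and 1781 in *Zfp57*-/- replicates. This was 55.3 and 47.8 FPKM against 23.4 and 27.3 FPKM, with replicates of 1 genotype differing by at most 1.17-fold. The mean was 2.04-fold lower in the *Zfp57*-/- cells (log2 fold change -1.03, standard error 0.20, edgeR adjusted p = 0.00393), the smallest adjusted p of the 10 genes and the only one of them past 0.01. Without *Zfp57*-/- replicate 1 the log2 fold change was -0.91 and the call was lost (adjusted p = 0.129). *Pfkp* (ENSMUSG00000021196.14, chr13:6579768-6648777), the platelet-type subunit, which is also found in brain, had 3696 and 710 counts in wild-type replicates against 926 and 811 in *Zfp57*-/- replicates. Wild-type replicate 1 stood 6.75-fold above wild-type replicate 2, while the *Zfp57*-/- replicates differed by 1.20-fold and lay between them. The log2 fold change of -1.53 (standard error 0.73) was not past the threshold (edgeR adjusted p = 0.171). It was 0.40 without wild-type replicate 1 and -2.33 without wild-type replicate 2. The difference between the genotypes of *Pfkp* therefore had no fixed direction in these data.

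In counts, *Pfkp* was above *Pfkl* only in wild-type replicate 1 (3696 against 2982). The exon lengths used were 13401 bases for *Pfkp* and 6675 for *Pfkl*, and the *Pfkp* to *Pfkl* ratio per kilobase was below 1 in every library. It was 0.617 and 0.106 in wild-type replicates against 0.317 and 0.227 in *Zfp57*-/- replicates, so that the groups overlapped (difference of mean log2 ratios 0.07, exact two-sided permutation test, p = 1). That difference was 1.34 without wild-type replicate 1 and -1.20 without wild-type replicate 2.

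The pyruvate kinase gene *Pkm* (ENSMUSG00000032294.17, chr9:59656368-59679375) makes the PKM1 form of adult neurons and muscle and the PKM2 form of embryonic and dividing cells by alternative splicing, and a count per gene does not separate the forms. *Pkm* had 14412 and 15905 counts in wild-type replicates against 17516 and 17812 in *Zfp57*-/- replicates, or 357 and 304 against 376 and 364 FPKM. The *Zfp57*-/- libraries were just above the wild-type ones, but the log2 fold change of 0.16 (standard error 0.20) was not past the threshold (edgeR adjusted p = 0.576). *Pkm* had the highest level per kilobase of the 10 genes in each library. Among 5 splicing factors known to act on *Pkm* exons, 1 was lower and 0 higher, or 20% called against 27.6% of all genes. The lower gene was *Ptbp2*, the neuronal polypyrimidine tract binding protein, with 3669 and 2975 against 1008 and 1094 counts (log2 fold change -1.75, standard error 0.24, edgeR adjusted p = 0.000672). *Ptbp1*, its counterpart in dividing cells, had 2160 and 4355 against 4726 and 5532 counts and was not past the threshold (log2 fold change 0.65, standard error 0.23, edgeR adjusted p = 0.0647). *Hnrnpa1*, *Hnrnpa2b1* and *Srsf3* were not past it either, with log2 fold changes of -0.15, -0.14 and -0.13. The genes of this list other than *Ptbp2* are named here after their values were seen.

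Lactate dehydrogenase is a tetramer of the A subunit, which favours lactate formation, and the B subunit, which favours its oxidation to pyruvate. *Ldha* (ENSMUSG00000063229.15, chr7:46841475-46855627) had 8989 and 8255 counts in wild-type replicates against 4779 and 5366 in *Zfp57*-/- replicates, or 336 and 238 against 155 and 166 FPKM. *Ldhb* (ENSMUSG00000030246.11, chr6:142490249-142507957) had 525 and 957 counts against 1319 and 1249, or 41.4 and 58.2 against 90.2 and 81.3 FPKM. In both genes the 2 genotypes did not overlap, and the 2 subunits moved in opposite directions. *Ldha* fell 1.79-fold (log2 fold change -0.84, standard error 0.22, edgeR adjusted p = 0.0180). *Ldhb* rose 1.72-fold (log2 fold change 0.78, standard error 0.22, edgeR adjusted p = 0.0238). With 1 *Zfp57*-/- library left out, the calls of both genes were lost, while the directions held. Without replicate 1 and 2, the log2 fold change was -0.79 and -0.88 for *Ldha* and 0.72 and 0.86 for *Ldhb*.

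The balance of the subunits was also compared within each library. Per kilobase, *Ldha* was 8.12 and 4.09 times as high as *Ldhb* in wild-type replicates against 1.72 and 2.04 times in *Zfp57*-/- replicates. *Ldha* stayed the more abundant transcript in all 4 libraries, but the ratio was 3.08-fold lower in the *Zfp57*-/- cells (difference of mean log2 ratios -1.62). The groups did not overlap (exact two-sided permutation test, p = 0.333, the smallest possible). Leaving out each library in turn kept the difference between -2.12 and -1.13. *Ldha* shares at least 250 bases at 95% identity or more with 4 other annotated genes, all of them predicted loci, and *Ldhb* does so with 1, and fragments that align to more than 1 place were not kept in these counts. *Pkm* shares such a stretch with *Gm6560* and *Pfkp* with *Pitrm1*.

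**Figure D2:**
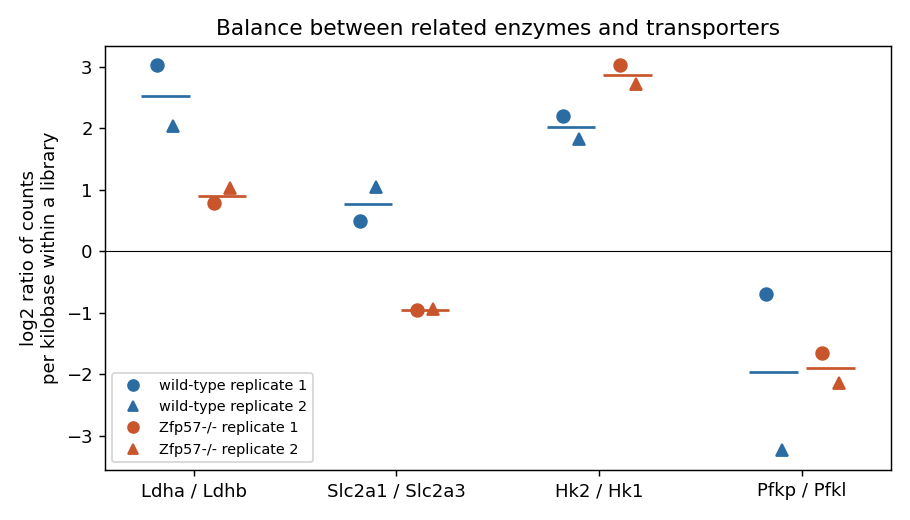
Log2 ratio of counts per kilobase within each library (vertical axis) for 4 pairs of related genes, with circles for replicate 1, triangles for replicate 2, blue for wild-type and orange for Zfp57-/- cells, and a line at the group mean. The Ldha to Ldhb and Slc2a1 to Slc2a3 ratios are lower and the Hk2 to Hk1 ratio is higher in both Zfp57-/- libraries, while the Pfkp to Pfkl ratios overlap.

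*Pdk1* (ENSMUSG00000006494.11, chr2:71873224-71903858), which phosphorylates and inactivates pyruvate dehydrogenase, had 2133 and 1417 counts in wild-type replicates against 1607 and 1387 in *Zfp57*-/- replicates. In FPKM this was 34.0 and 17.4 against 22.2 and 18.2, so that the *Zfp57*-/- values lay within the wild-type range. The log2 fold change was -0.34 (standard error 0.29, edgeR adjusted p = 0.413). It was 0.19 without wild-type replicate 1 and -0.75 without wild-type replicate 2.

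**Figure D3:**
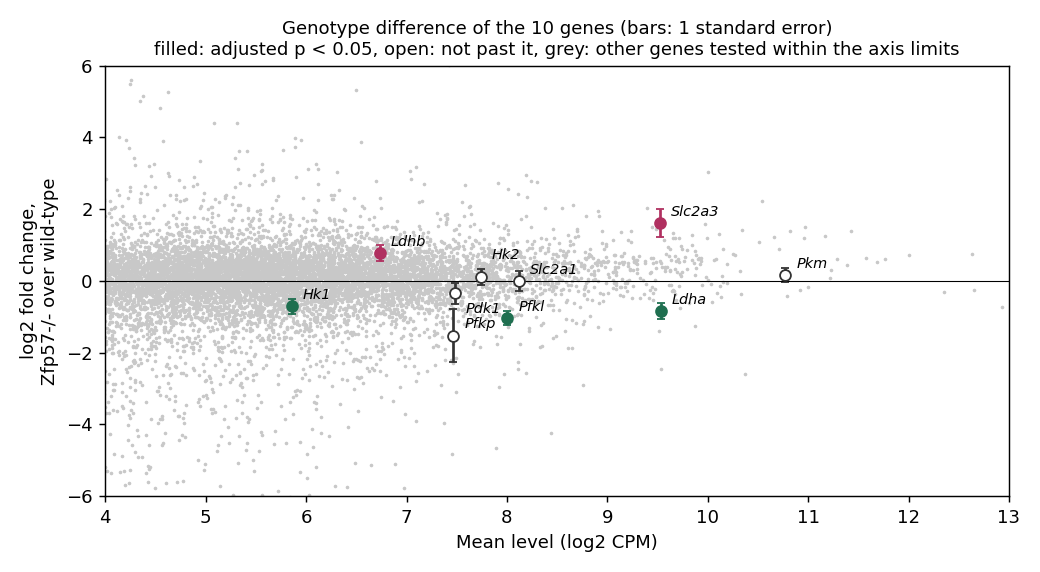
Log2 fold change of Zfp57-/- over wild-type cells (vertical axis, bars of 1 standard error) against mean level in log2 CPM (horizontal axis) for the 10 genes, with other genes tested in grey within the axis limits. Filled points passed an adjusted p of 0.05, with Slc2a3 and Ldhb above 0 and Hk1, Pfkl and Ldha below it, and Pfkp has the longest bar, a standard error of 0.73.

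The order of the levels per kilobase differed between the genotypes. Within a genotype this order depends on the exon lengths used, from 1570 bases for *Ldhb* to 13401 for *Pfkp*. In wild-type cells, *Pkm* and *Ldha* came first with mean levels of 330 and 287 FPKM, and their ranges over the replicates overlapped. *Slc2a1* followed at 79.3 FPKM. *Pfkl*, *Slc2a3*, *Ldhb*, *Hk2*, *Pdk1*, *Pfkp* and *Hk1* came next, and each overlapped its neighbour in this order. In *Zfp57*-/- cells *Pkm* was alone at 370 FPKM, *Ldha* and *Slc2a3* shared the next place at 160 and 153 FPKM with overlapping ranges, and *Ldhb* and *Slc2a1* followed at 85.7 and 79.3 FPKM, again overlapping. *Hk2*, *Pfkl*, *Pdk1*, *Pfkp* and *Hk1* then followed with no overlap between neighbours, from 37.1 down to 5.14 FPKM. The spread between the wild-type replicates was wider than that between the *Zfp57*-/- replicates. Between replicates the 10 genes differed by 1.16-fold to 6.75-fold in wild-type and by 1.03-fold to 1.36-fold in *Zfp57*-/- cells, and 9 of the 10, all but *Ldhb*, were higher in wild-type replicate 1 than in replicate 2.

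The profile of *Pfkl* over the 4 libraries was closest to those of *Bnip3l*, *Wdfy3* and *Tet3*, by the distance between centred log2 CPM (counts scaled to library size) among 1594 genes of similar level (distances 0.0593, 0.0879 and 0.112). For *Slc2a3* the closest were *Rian*, *Fn1* and *H19* among 417 genes (distances 0.674, 0.687 and 0.785). The neighbours of *Slc2a3* were thus farther away than those of *Pfkl*. With 4 libraries, such likeness mostly follows the genotype difference itself. *Bnip3l* had 2271 and 1934 normalized counts in wild-type replicates against 995 and 1150 in *Zfp57*-/- replicates, and *Rian* had 4706 and 2182 against 8320 and 6914.

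The remaining genes of the pathway were read from the same fit. Over 92 other listed genes, 87 were tested, 12 were higher and 19 lower, which is 35.6% called against 27.6% of all genes, with a median log2 fold change of -0.23. The 31 calls became 52 without wild-type replicate 2, 17 without *Zfp57*-/- replicate 1 and 18 without *Zfp57*-/- replicate 2. Of the other glycolytic enzymes, 15 of 18 were tested, 1 was higher and 4 lower, or 33.3% called against 27.6% of all genes (median -0.34 against -0.01). *Tpi1*, triose phosphate isomerase, had 5068 and 5402 counts in wild-type replicates against 2356 and 2449 in *Zfp57*-/- replicates (log2 fold change -1.18, standard error 0.19, edgeR adjusted p = 0.00173). *Pgk1*, the first ATP-forming kinase of the pathway, had 7713 and 5606 against 2943 and 2716 (log2 fold change -1.33, standard error 0.27, edgeR adjusted p = 0.00552). In both genes the values of the genotypes did not overlap. *Pfkm*, the muscle-type phosphofructokinase, fell by 0.73 and *Eno2*, the neuronal enolase, by 2.5 on the log2 scale. *Eno2* had 811 and 249 counts in wild-type replicates against 108 and 101 in *Zfp57*-/- replicates, and its log2 fold change was -1.14 without wild-type replicate 1 and -3.20 without wild-type replicate 2. Its call was lost without a filter on low counts (edgeR adjusted p = 0.271). *Hkdc1*, a further hexokinase gene, was higher (log2 fold change 1.44, edgeR adjusted p = 0.00555). *Gapdh*, *Aldoa*, *Pgam1* and *Eno1* did not pass the threshold, with log2 fold changes of 0.12, -0.23, -0.25 and -0.21, and are named as abundant enzymes after their values were seen. *Gpi1*, named in the same way, did not pass it either, but its values did not overlap between the genotypes. It had 4730 and 4170 counts in wild-type replicates against 3061 and 3079 in *Zfp57*-/- replicates (log2 fold change -0.61, standard error 0.22, edgeR adjusted p = 0.0655). The paper lists *Gpi1* among its down-regulated genes. The call of *Pfkm* was lost without either *Zfp57*-/- library (adjusted p = 0.203 and 0.277).

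**Figure D4:**
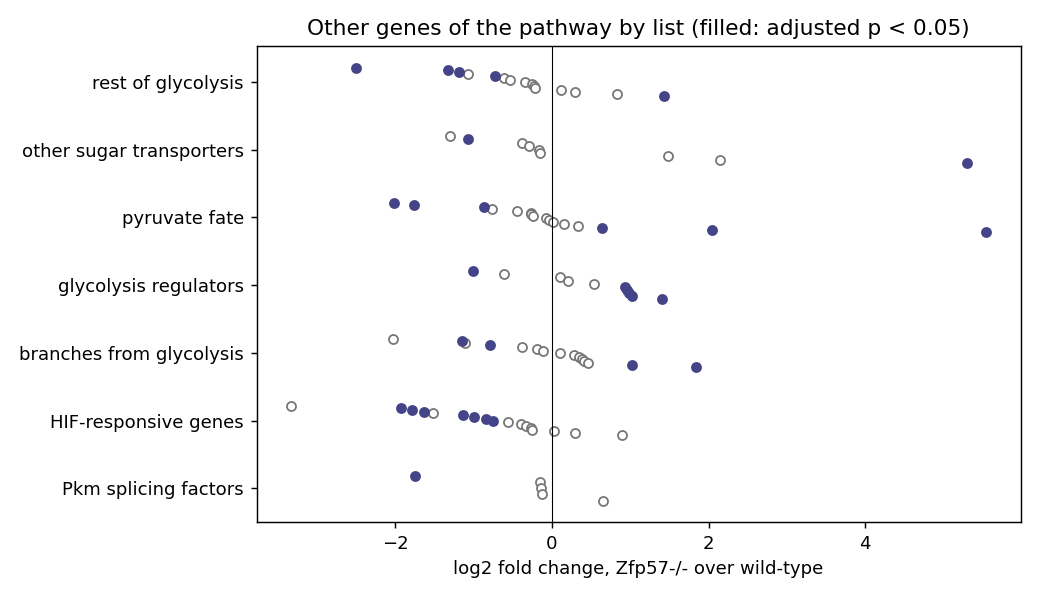
Log2 fold change of Zfp57-/- over wild-type cells (horizontal axis) for every tested gene of the 7 other pathway lists, 1 point per gene in each row, filled where the adjusted p was below 0.05. The called genes of the HIF-responsive list all lie left of 0 and those of the regulators mostly right of it, and the 2 points beyond 5 are Slc5a1 and Pdk4, which had at most 2 counts in a wild-type library.

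Of 16 tested genes that carry lactate and pyruvate or act on pyruvate dehydrogenase, 3 were higher and 3 lower, or 37.5% called against 27.6% of all genes. Among all genes 13% were higher and 14.6% lower. *Slc16a1*, the monocarboxylate transporter MCT1, had 1104 and 1633 counts in wild-type replicates against 5031 and 6511 in *Zfp57*-/- replicates (log2 fold change 2.04, standard error 0.21, edgeR adjusted p = 9.03e-05). *Slc16a3*, the lactate exporter MCT4, had 1043 and 621 against 244 and 288 (log2 fold change -1.76, standard error 0.33, edgeR adjusted p = 0.00343), and its log2 fold change was -1.12 without wild-type replicate 1. These 2 carriers therefore moved against each other, as the 2 lactate dehydrogenase subunits did. *Slc16a7*, which encodes MCT2, was lower (37 and 28 against 5 and 12 counts, edgeR adjusted p = 0.0443). *Pdk4*, another kinase of pyruvate dehydrogenase, had 2 and 0 counts in wild-type replicates against 55 and 54 in *Zfp57*-/- replicates, at least 17.4-fold higher against a floor of 3 counts per wild-type library. *Pdhb*, a subunit of pyruvate dehydrogenase, was higher (log2 fold change 0.64) and *Pdp1*, the phosphatase that turns the complex on, was lower (-0.87). Of these, *Pdhb*, *Pdp1* and *Slc16a7* lost their call without either *Zfp57*-/- library (adjusted p from 0.0991 to 0.364), and DESeq2 did not call *Slc16a7* (0.0592). Among 9 other sugar transporters tested, the sodium-coupled *Slc5a1* was higher, with 0 and 1 against 20 and 30 counts and at least 7.92-fold, and *Slc2a13* was lower (log2 fold change -1.08, edgeR adjusted p = 0.0168), a call lost without either *Zfp57*-/- library (0.249 and 0.0738). These 2 genes were 22.2% of their list, against 27.6% of all genes called.

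Of 10 regulators of glycolysis, 5 were higher and 1 lower, or 60% called against 27.6% of all genes. *Myc*, a transcription factor known to drive glycolytic genes, had 99 and 220 counts in wild-type replicates against 409 and 439 in *Zfp57*-/- replicates (log2 fold change 1.41, standard error 0.27, edgeR adjusted p = 0.00385). The enzymes that set fructose 2,6-bisphosphate, an activator of phosphofructokinase, were split. *Pfkfb3*, the form with the strongest kinase activity, was lower (528 and 345 against 201 and 264 counts, log2 fold change -1.01). *Pfkfb4*, named after its values were seen, had 120 and 174 against 111 and 86 counts and was not called (log2 fold change -0.61, edgeR adjusted p = 0.136). *Pfkfb2*, *Pfkfb1* and the phosphatase *Tigar* were higher, with log2 fold changes of 0.98, 0.96 and 1.03. Each of these 4 calls was lost without *Zfp57*-/- replicate 1 (adjusted p = 0.161, 0.167, 0.394 and 0.0846), and those of *Pfkfb2*, *Pfkfb1* and *Tigar* also without replicate 2 (0.0905, 0.210 and 0.0719), and DESeq2 did not call *Pfkfb1* (0.0768). Of 15 genes of the branches from glycolysis, 2 were higher and 2 lower, or 26.7%, which is near the 27.6% of all genes called. *Gfpt2*, of the hexosamine branch, had 108 and 92 against 351 and 402 counts (log2 fold change 1.84), *Rpe*, of the pentose phosphate branch, was higher (1.02), and *Gpd2*, of the glycerol phosphate shuttle, and *Gys1*, glycogen synthase, were lower (-1.15 and -0.79). *Gpd2* lost its call without *Zfp57*-/- replicate 2 (adjusted p = 0.0559) and *Gys1* without either *Zfp57*-/- library (0.297 and 0.110).

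Of 17 other genes known to respond to HIF, 7 were lower, or 41.2%, where 14.6% of all genes were lower, and the other 10 were not called. The median log2 fold change of the list was -0.76, against -0.01 over all genes. Because the list was chosen with earlier results of these data known, these shares and medians are a description and not an independent test. The number called was 13 without wild-type replicate 2 and 3 without *Zfp57*-/- replicate 1. *Egln1*, a prolyl hydroxylase that marks HIF for degradation, had 954 and 818 counts in wild-type replicates against 235 and 311 in *Zfp57*-/- replicates (log2 fold change -1.78, standard error 0.25, edgeR adjusted p = 0.000651). *Bnip3*, a mitophagy receptor, had 1474 and 877 against 332 and 338 (log2 fold change -1.92, standard error 0.32, edgeR adjusted p = 0.00200), and its log2 fold change was -1.28 without wild-type replicate 1. *Ankrd37* and *Ero1l* were also lower, at -1.63 and -1.13, with the calls lost without *Zfp57*-/- replicate 2 for *Ankrd37* (adjusted p = 0.144) and without replicate 1 for *Ero1l* (0.0735). The summed level of the list was 500 and 328 FPKM in wild-type replicates against 231 and 264 FPKM in *Zfp57*-/- replicates. The 2 wild-type libraries thus also differed from each other, in the same order as for 9 of the 10 genes, all but *Ldhb*. Within the list, *Higd1a*, *Hilpda* and *P4ha2* were instead higher in wild-type replicate 2 than in replicate 1. The genes of HIF itself are among the regulators and are named here after their values were seen. *Epas1* was higher, with 1122 and 2852 against 3221 and 4277 counts (log2 fold change 0.93, edgeR adjusted p = 0.0417). *Hif1a* and *Arnt* did not pass the threshold, with log2 fold changes of 0.21 and 0.11.

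The hybrid genome allowed the maternal JF1 and paternal B6 reads of a gene to be counted apart. The allelic ratio is JF1/(JF1 + B6), and the libraries held 2837013 to 3826604 allelic counts. Reads were assigned to an allele for 9 of the 10 genes, with 171 to 4717 reads per gene and library, and for these 9 the test covered 10977 autosomal genes. *Ldhb* had 0 allelic reads in all 4 libraries, so that nothing is known of its alleles here. Over 10091 genes the ratio had a median of 0.499 in wild-type cells and of 0.489 in mutant cells. None of the 9 genes was expressed from a single allele, and the ratios per library lay between 0.318 and 0.580.

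The ratio differed between the genotypes for 3 of the 9 genes in edgeR's genotype-by-allele contrast, against 14.5% of all autosomal genes tested. For *Slc2a3* the ratio was 0.513 and 0.517 in wild-type replicates against 0.424 and 0.444 in *Zfp57*-/- replicates (log2 difference -0.46, standard error 0.10, edgeR adjusted p = 0.000265). Both alleles were higher in the *Zfp57*-/- cells, the JF1 allele by 2.54-fold and the B6 allele by 3.49-fold in mean normalized allelic count. For *Hk2* the ratio was 0.495 and 0.512 against 0.433 and 0.455 (log2 difference -0.34, standard error 0.11, edgeR adjusted p = 0.0276), a call lost without wild-type replicate 1 (0.0758), without wild-type replicate 2 (0.239) and without *Zfp57*-/- replicate 1 (0.180). For *Pfkp* it was 0.415 and 0.484 against 0.534 and 0.549 (log2 difference 0.61, standard error 0.14, edgeR adjusted p = 0.000234). The wild-type library with the high *Pfkp* count was thus also the one with the lowest JF1 share, 1024 JF1 and 1446 B6 reads, and without it the difference was 0.34 and not past the threshold (adjusted p = 0.512). The median ratio of the 15 nearest genes was 0.497 and 0.477 around *Slc2a3*, 0.498 and 0.493 around *Hk2* and 0.50 and 0.510 around *Pfkp*, in wild-type and *Zfp57*-/- cells. DESeq2 called none of the 3 (adjusted p = 0.0542, 0.536 and 0.130).

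**Figure D5:**
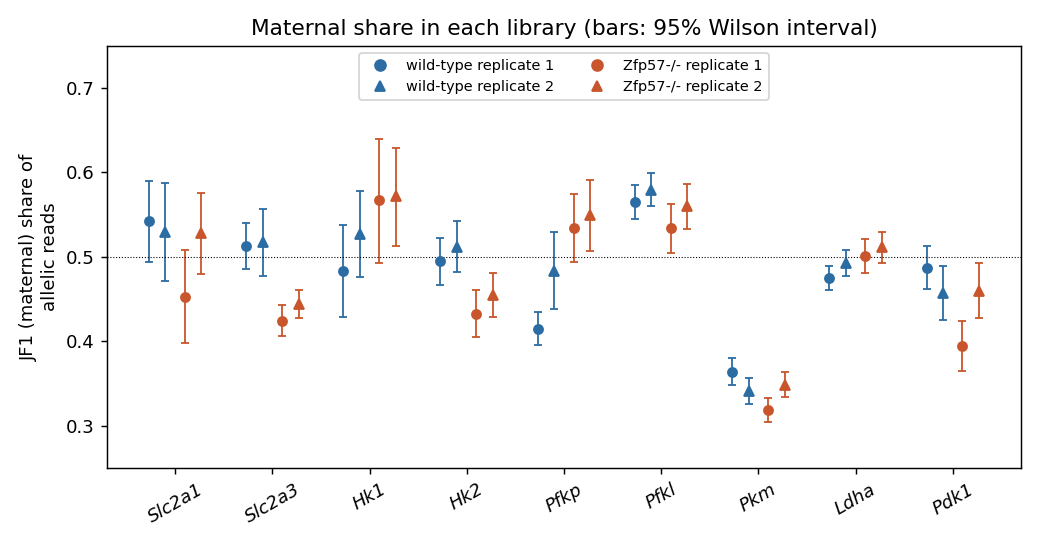
JF1 share of allelic reads (vertical axis, from 0.25 to 0.75) of 9 genes in every library, with 95% Wilson intervals that cover counting error only, blue for wild-type and orange for Zfp57-/- cells. Pkm lies below 0.4 in all 4 libraries, the Slc2a3 and Hk2 shares are lower in both Zfp57-/- libraries, and the lowest Pfkp share, 0.415, is that of wild-type replicate 1.

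Within a genotype, 3 of the 9 genes had a biased ratio in wild-type (23.6% of all autosomal genes tested did) and 5 in *Zfp57*-/- cells (21.8%), or 3 in the latter without *Zfp57*-/- replicate 1. *Pkm* was biased to the B6 allele in both, at 0.364 and 0.341 in wild-type replicates against 0.318 and 0.349 in *Zfp57*-/- replicates (edgeR adjusted p = 8.50e-24 and 2.40e-27), on 3463 to 4189 reads per library. The 15 genes nearest to *Pkm* had a median ratio of 0.595 in wild-type cells against 0.485 in *Zfp57*-/- cells, so that *Pkm* did not share the ratio of its region. *Gm49759*, a gene model that overlaps *Pkm* on the same strand, had up to 622 bulk counts. *Pkm* also shares at least 250 bases at 95% identity or more with *Gm6560*. The part of either gene in the ratio was not tested. *Pfkl* was biased to JF1 in both genotypes, at 0.565 and 0.580 in wild-type replicates against 0.534 and 0.560 in *Zfp57*-/- replicates (edgeR adjusted p = 1.60e-07 and 0.00391). The other biased genes were *Pfkp* in wild-type and *Slc2a3*, *Hk2* and *Pdk1* in *Zfp57*-/- cells. *Pdk1* had a ratio of 0.487 and 0.457 in wild-type replicates against 0.394 and 0.460 in *Zfp57*-/- replicates, with no call between the genotypes (edgeR adjusted p = 0.145).

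For the genes that were lower in the *Zfp57*-/- cells, both alleles were lower. The mean normalized count of the JF1 and the B6 allele in *Zfp57*-/- cells was 0.567 and 0.514 times that of wild-type cells for *Ldha*, 0.475 and 0.524 times for *Pfkl* and 0.700 and 0.535 times for *Hk1*. The ratios of these 3 genes did not pass the threshold between the genotypes (edgeR adjusted p = 0.391, 0.455 and 0.341). Around *Ldha* the 15 nearest genes had a median ratio of 0.637 in wild-type cells against 0.491 in *Zfp57*-/- cells, while *Ldha* itself was at 0.475 and 0.492 in wild-type replicates against 0.501 and 0.511 in *Zfp57*-/- replicates. Likewise, around *Slc2a1* the neighbours were at 0.626 and 0.482, while *Slc2a1* was at 0.542 and 0.530 in wild-type replicates against 0.453 and 0.528 in *Zfp57*-/- replicates.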

How the data were processed

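Total RNA of 2 wild-type and 2 *Zfp57*-/- day 12 cultures was sequenced in paired-end mode after ribosomal RNA removal, with strand kept. The authors used Trimmomatic 0.36 for trimming and STAR 2.5.4a for unique alignment to GRCm38, and deposited raw counts per GENCODE vM20 gene from featureCounts (Subread 1.6.0), on the matching strand. The allele-specific counts that the authors deposited come from a genome masked at strain SNPs, split by SNPsplit into JF1 and B6 reads.

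Genes with more than 8 summed counts were tested with edgeR 4.0.16 (R 4.3.3, TMM, robust quasi-likelihood, Benjamini-Hochberg over all 19995 genes, threshold 0.05), with DESeq2 1.42.0 as an alternative. FPKM are counts per kilobase of exon, scaled to the TMM library size. Related genes were compared as log2 ratios within a library by exact permutation tests. The allele test modelled each library and, per genotype, the allele, over autosomal genes whose normalized allelic count reached 10 in both wild-type libraries. The 10 genes and all lists were chosen with earlier results of these data known. Beside the 10 genes, up to 4 called genes per direction of each list with the smallest adjusted p were named, and the 3 closest profiles of *Pfkl* and *Slc2a3*. Promoter windows are RefSeq's, and near copies were searched with BLAST+ 2.17.0. Wilson intervals at 95% cover counting error only. Nothing ties the cultures beyond their labels as biological duplicates, and p-values measure the spread between them. The steps were tested on simulated data. Alternatives were other scalings and filters, a gene-length correction, a replicate block, a stricter threshold and each library left out, where the lone library is assumed to vary like the other genotype.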

Additional observations from a re-analysis of the deposited data

Results flagged for a closer look

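The allelic ratio of 3 of the 9 genes tested for it differed between the 2 genotypes, by the test of the difference itself, edgeR's genotype-by-allele contrast, which called 14.5% of 10977 autosomal genes. DESeq2 called 0 of the 9 in the same contrast, and 2 had an unadjusted p under 0.05. The log2 ratio of JF1 over B6 reads, *Zfp57*-/- minus wild-type, was -0.46 for *Slc2a3*, -0.34 for *Hk2* and 0.61 for *Pfkp*. Both *Zfp57*-/- libraries of *Slc2a3* and *Hk2* were lower, and both of *Pfkp* higher, than both wild-type libraries. Over the left-out libraries, the *Slc2a3* difference stayed past the threshold, with adjusted p between 0.000195 and 0.00969, while that of *Pfkp* rested on wild-type replicate 1 and that of *Hk2* passed in 1 of 4 cases, without *Zfp57*-/- replicate 2 (edgeR adjusted p = 0.0179).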

How the results depend on the processing

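With 2 libraries per genotype, no exact test over libraries could pass 0.05, and the calls rest on a spread that edgeR shares across genes. The 5 called genes kept their direction under all 13 alternatives. Directions of *Slc2a1*, *Hk2*, *Pfkp* and *Pdk1* were not stable. *Slc2a1* had a log2 fold change of -0.0042 with DESeq2, -0.0040 with DESeq2 size factors, -0.024 with upper-quartile scaling, -0.12 with total counts, -0.022 with the stricter filter on low counts and -0.058 with a gene-length correction, and *Hk2* one of -0.015 with total counts, where the median of all genes was -0.12 and the share of higher calls from 47.2% to 39.6%. Leaving out 1 library at a time put the log2 fold change between -0.38 and 0.48 for *Slc2a1*, -0.17 and 0.41 for *Hk2*, -2.33 and 0.40 for *Pfkp*, and -0.75 and 0.19 for *Pdk1*. The *Pfkp* to *Pfkl* difference was -0.38 from pooled counts, and between -1.20 and 1.34 with a library left out (-1.20 without wild-type replicate 2, -0.17 without *Zfp57*-/- replicate 1). The causes were not tested.

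At an adjusted p of 0.01, 1 of the 10 genes was called (0 higher, 1 lower), 2901 of all genes and 14 of the other pathway genes (7 higher, 7 lower), among them 3 of glycolysis, 1 sugar transporter, 3 of pyruvate fate, 1 regulator and 2 HIF-responsive genes, and *Zfp57* (-1.19) was past 0.05 but not 0.01. DESeq2 called 1 gene of the 10 higher and, on allele counts, 0 genes between genotypes (2 at an unadjusted p under 0.05) and 2 in *Zfp57*-/- cells. *Pkm* splicing factors called were 2 with DESeq2, upper-quartile scaling, no filter, the gene-length correction and the replicate block.

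With a library left out, the calls ranged from 1 to 8 of the 10 genes (1 to 5 higher, 0 to 6 lower), from 2831 to 9947 of all genes and from 17 to 52 of the other pathway genes (7 to 22 higher, 9 to 30 lower). Per list they ranged from 4 to 9 for glycolysis, 1 to 3 for sugar transporters, 3 to 9 for pyruvate fate, 2 to 8 for regulators, 2 to 11 for branches, 3 to 13 for HIF-responsive genes and 1 to 2 for splicing factors. Without *Zfp57*-/- replicate 1, *Slc2a3* was the gene called, and without replicate 2, *Slc2a3* and *Pfkl*. Between the left-out fits, *Zfp57* lay between -1.62 and -0.61, and allelic calls ranged from 1 to 4 between genotypes, 2 to 3 in wild-type and 3 to 5 in *Zfp57*-/- cells.

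Over 11736 genes, the deviations of same-numbered libraries correlated at 0.145. A block for the replicate number gave 6984 called genes (3489 higher, 3495 lower), among them the same 5 of the 10 genes, with 3 allelic calls between genotypes. The numbers name no shared culture, so that the block is not the main comparison.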
